A study of Homo sapiens with 6 samples.

Results

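The neuroendocrine granule and synaptic vesicle genes were 38 protein-coding genes chosen by symbol for their function, with earlier results of these data known, and all 38 were found among the 58024 genes of the expression table of C4-2B cells. They comprised 6 granins and related granule cargo proteins, 3 enzymes that process prohormones, 2 proteins of the granule membrane, 3 SNARE proteins, 4 synaptotagmins, 5 priming and release factors, 5 proteins of the vesicle membrane or coat, 3 neuronal RNA-binding proteins and 7 general markers of neurons and neuroendocrine cells. RNA-Seq of 3 C4-2B parental libraries (C42-B) was set against 3 resistant libraries (C42-B-ENZU). C4-2B is a castration resistant human prostate cancer line descended from LNCaP, and enzalutamide blocks the androgen receptor. The resistant cells were the pooled survivors of passage in 1 to 20 µM enzalutamide for 6 months or more and were then kept in 5 µM, whereas the parental cells were passaged alongside in the vehicle dimethyl sulfoxide, given as 1% in the labels. The labels describe RNA taken from cells treated with 10 µM enzalutamide in a sentence that names both lines, so whether the parental libraries were also exposed is not clear from them. Nothing in the labels says whether the libraries came from separate cultures, and p values therefore measure the spread between these libraries only.

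Neuroendocrine cells store peptides in dense core granules. Granins are the bulk proteins of these granules, prohormone convertases and carboxypeptidase E cut the peptides to size inside them, and a rise in calcium, sensed by synaptotagmins, makes SNARE proteins fuse the granule or vesicle with the cell membrane. In prostate cancer, such genes are the classical markers of neuroendocrine differentiation, a state that can follow blockade of the androgen receptor.

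Most of these genes were higher in the resistant cells, many of them from a level near 0. Values are FPKM (fragments divided by transcript length and by the mapped fragments of the library) as the authors gave them, a scale that allows levels of different genes to be set side by side. Summed over the 38 genes, the level was 155, 144 and 160.3 FPKM in parental replicates 0, 1 and 2 and 1361, 1385 and 1483 FPKM in resistant replicates 0, 1 and 2, a 9.21-fold difference of the means. A mean of at least 1 FPKM was reached by 12 genes in the parental and by 22 genes in the resistant cells, and by 15 genes in neither. A moderated test on log2 of FPKM + 0.1 (limma, two-sided, Benjamini-Hochberg (BH) adjusted over the 24468 genes whose mean reached 0.1 FPKM, threshold 0.05) covered 33 of the 38 genes and called 23 higher and 1 lower in the resistant cells, with 9 not past the threshold. Over all genes tested, 22.1% were called higher and 22.3% lower. The median log2 fold change was 2.83 over the 33 genes tested against −0.05 over all genes tested. Of the 23 genes called higher, 10 had a parental mean under 0.1 FPKM and so entered the test only through their resistant values. The median of the 33 includes these 10 genes and leaves out the 5 that were not tested. When every gene above 0 in any library was tested, which took in all 38, the counts were again 23 higher and 1 lower. In RNA of whole cultures, more cells that express a gene and more of its RNA in each cell cannot be told apart.

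**Figure D1:**
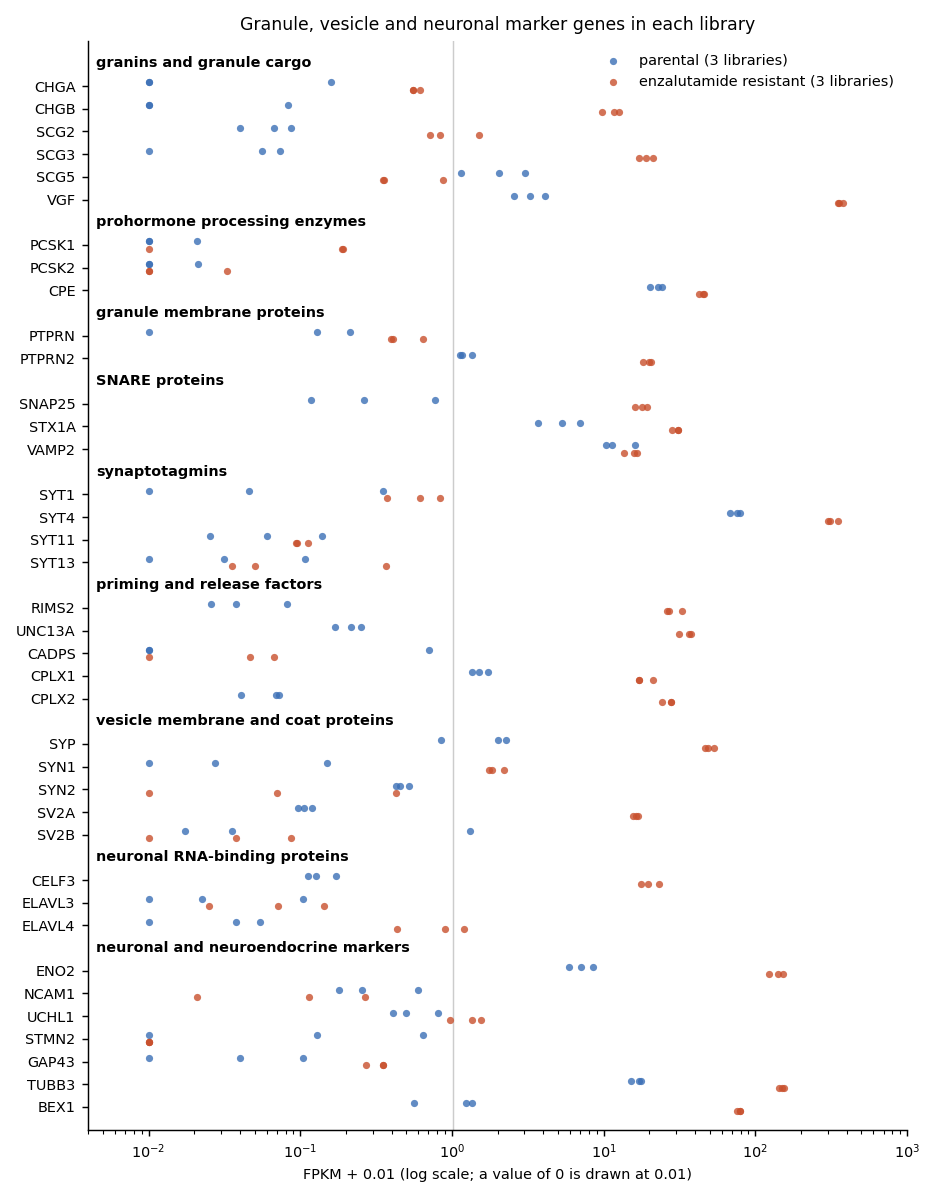
FPKM + 0.01 on a log axis of the 38 genes, grouped by role, with 1 point for each of the 3 parental (blue) and 3 enzalutamide resistant (orange) libraries; the grey line marks 1 FPKM. VGF, SYT4, TUBB3, ENO2 and BEX1 lie farthest to the right in the resistant libraries, while SCG5, SYT11, CADPS, SYN2, SV2B, NCAM1 and STMN2 have their highest value in a parental library.

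Among the granins, VGF was the most abundant. It encodes a secreted neuropeptide precursor and lies on chromosome 7 (GRCh38, 101162509 to 101165569). VGF was at 3.27, 2.57 and 4.12 FPKM in parental libraries and at 353, 358 and 379 FPKM in the resistant libraries. The groups were far apart and each was tight. On the log2 scale VGF differed by 6.76 (SE 0.17, limma, BH-adjusted p = 3.76e-06). SCG3, secretogranin III, which binds chromogranin A and helps load cargo into granules, lies on chromosome 15 (between bases 51681492 and 51721026) and had levels of 0.0638, 0.0462 and 0 FPKM in the parental and 17.0, 19.1 and 21.2 FPKM in the resistant libraries. The fitted difference of SCG3 on the log2 scale was 7.16 (SE 0.28, limma, BH-adjusted p = 1.55e-05). CHGB, chromogranin B, on chromosome 20, was listed at 0, 0 and 0.0725 FPKM in parental libraries and was at 9.68, 11.7 and 12.6 FPKM in the resistant libraries, a call of higher. Chromogranin A and secretogranin II were also called higher, but stayed at a low level. CHGA, the serum marker most used for neuroendocrine tumours, had 0, 0.149 and 0 FPKM in the parental and 0.542, 0.540 and 0.605 FPKM in the resistant libraries. SCG2 had 0.0574, 0.0772 and 0.0300 FPKM in the parental and 1.49, 0.704 and 0.819 FPKM in the resistant libraries. For both genes all resistant values lay above all parental values. By level in the resistant cells the order was VGF, SCG3, CHGB, SCG2 and CHGA, and the values of neighbours in this order did not overlap.

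The gene that went the other way was SCG5, which encodes 7B2, a chaperone of the prohormone convertase PCSK2. SCG5, on chromosome 15, had 1.14, 2.04 and 3.02 FPKM in the parental and 0.339, 0.346 and 0.863 FPKM in the resistant libraries. The groups did not overlap, and the gene was called lower, by −1.82 on the log2 scale (limma, BH-adjusted p = 0.0246). This call was lost when any of 4 libraries, parental replicate 1, parental replicate 2, resistant replicate 0 or resistant replicate 1, was left out, with adjusted p values between 0.0653 and 0.0792.

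Promoters were read from the RefSeq promoter table (GRCh38.p14, 250 bases before to 50 bases after the start of a transcript), which held 42 promoters of 28 of the 38 genes. The cAMP response element TGACGTCA, the site of the factor CREB, was found in 4 of the 42 promoters, 9.52%, and in 649 of all 35116 promoters, 1.85%. It was found for 4 genes, of which 3 were called higher. Of all 28 genes whose promoters were read, 17 were called higher. Its shorter core TGACG, which the full element also contains, was in 42.9% of the 42 promoters and in 24.6% of all promoters. REST is a repressor of neuronal genes outside neurons, and the left and right blocks of its site, AGCACC and GGACAG, were each in 26.2% of the 42 promoters, against 15.9% and 20.5% of all. Both blocks in the spacing of the full site, with 2 bases of any kind between them, occurred in 20 of all promoters and among the 42 in that of SYN1 alone. This spaced search was added after the single blocks had been counted. Both strands were searched throughout. These matches describe letters in the promoters, and binding was not measured.

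Of the enzymes that process prohormones, CPE alone reached 1 FPKM. CPE, carboxypeptidase E, on chromosome 4, removes the basic residues left after cleavage, and was at 24.1, 20.2 and 22.9 FPKM in the parental and 45.5, 42.3 and 45.1 FPKM in the resistant libraries. Its means differed 1.98-fold and it was called higher. The convertases PCSK1 and PCSK2 were near 0 in both groups. PCSK1 had 0.0109, 0 and 0 FPKM in the parental and 0.180, 0.179 and 0 FPKM in the resistant libraries, and PCSK2 did not exceed 0.0228 FPKM in any library. Neither reached the mean needed for the test. As a gauge of such values, 1 read on a transcript of 2000 bases was worth between 0.0271 and 0.0409 FPKM, estimated from the steps between low values of genes with a single transcript, with fragments assumed to be 200 bases long. PCSK1N, which encodes the PCSK1 inhibitor proSAAS and belongs to the related genes described further on, rose from 2.06, 2.05 and 0.895 FPKM to 17.4, 17.7 and 20.2 FPKM, and was singled out after its values had been seen. The processing enzymes were thus measured at unequal levels, with CPE at 42.3 FPKM or more and both convertases at 0.180 FPKM or less in each resistant library.

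The granule membrane is represented by a pair of related phosphatase-like proteins, IA-2 and phogrin. PTPRN2, which encodes phogrin, on chromosome 7 (between bases 157539056 and 158587823), had levels of 1.15, 1.35 and 1.12 FPKM in the parental and 20.4, 20.0 and 18.1 FPKM in the resistant libraries. On the log2 scale PTPRN2 differed by 3.91 (SE 0.15, limma, BH-adjusted p = 1.32e-05). PTPRN, which encodes IA-2, had 0.202, 0.118 and 0 FPKM in the parental and 0.402, 0.385 and 0.633 FPKM in the resistant libraries. Its groups did not overlap, but its log2 fold change of 1.58 had an adjusted p of 0.0550 in the same limma fit with Benjamini-Hochberg adjustment.

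The SNARE proteins of regulated release form a bundle of SNAP25, syntaxin 1 and VAMP2. SNAP25 was at 0.108, 0.764 and 0.252 FPKM in the parental and 16.2, 19.2 and 17.9 FPKM in the resistant libraries and was called higher. STX1A, syntaxin 1A, was called higher as well, from 5.34, 3.68 and 6.998 FPKM to 28.3, 30.9 and 30.8 FPKM. VAMP2, the SNARE protein on the vesicle, had 11.3, 10.3 and 16.1 FPKM in the parental and 13.6, 16.5 and 15.8 FPKM in the resistant libraries, and the groups overlapped. Its log2 fold change of 0.30 did not pass the threshold, with an adjusted p of 0.239 in limma with Benjamini-Hochberg adjustment. The log2 fold change was 5.48 for SNAP25 and 2.51 for STX1A. That of SNAP25 was 6.04 without parental replicate 1, its highest parental library, and 5.01 without parental replicate 0.

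Of the 4 synaptotagmins, SYT4 was abundant in both groups. SYT4, on chromosome 18 (43267892 to 43277535), encodes a synaptotagmin of dense core granules. It was at 79.7, 67.9 and 75.3 FPKM in parental libraries, where it made up 46.9% to 51.4% of the summed level of the 38 genes, and at 300.6, 311 and 350.2 FPKM in the resistant libraries. The fitted difference of SYT4 on the log2 scale was 2.11 (SE 0.09, limma, BH-adjusted p = 2.17e-05). SYT1, the fast calcium sensor of synaptic vesicles, stayed below 1 FPKM, with 0.0357, 0.341 and 0 FPKM in the parental and 0.607, 0.361 and 0.821 FPKM in the resistant libraries. It was not past the threshold, with a log2 fold change of 1.88 and an adjusted p of 0.0617 in limma with Benjamini-Hochberg adjustment, and without parental replicate 1 the adjusted p was 0.0140. SYT11 and SYT13 did not reach the mean for the test, and their highest values in any library were 0.1298 and 0.356 FPKM.

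Of 5 priming and release factors, 4 were called higher, most of them from parental levels under 1 FPKM. RIMS2, an active zone scaffold that binds RAB3, on chromosome 8, was at 0.0158, 0.0718 and 0.0278 FPKM in the parental and 26.2, 26.9 and 32.9 FPKM in the resistant libraries. The fitted difference of RIMS2 on the log2 scale was 7.71 (SE 0.25, limma, BH-adjusted p = 8.02e-06). It was the highest of the 33 genes tested, a rank that depends on the pseudocount, since with 1 FPKM in place of 0.1 FPKM it was 4.83 and VGF, at 6.41, BEX1, at 5.29, and UNC13A, at 4.91, lay above it. CPLX2, complexin 2, which clamps and then promotes SNARE fusion, on chromosome 5, went from 0.0626, 0.0596 and 0.0305 FPKM to 24.1, 27.9 and 27.7 FPKM. On the log2 scale CPLX2 differed by 7.47 (SE 0.22, limma, BH-adjusted p = 5.57e-06). Its relative CPLX1, on chromosome 4, went from 1.35, 1.71 and 1.49 FPKM to 17.2, 17.1 and 21.2 FPKM. The log2 values of CPLX1 differed by 3.52 (SE 0.16, limma, BH-adjusted p = 2.60e-05). UNC13A, the Munc13 protein that opens syntaxin for fusion, on chromosome 19, had 0.159, 0.241 and 0.207 FPKM in the parental and 37.8, 36.5 and 31.5 FPKM in the resistant libraries. The fitted difference of UNC13A on the log2 scale was 6.87 (SE 0.19, limma, BH-adjusted p = 4.69e-06). These 4 genes were therefore high in all resistant libraries and low in all parental libraries. CADPS, which primes dense core granules, did not follow them. It was at 0, 0.699 and 0 FPKM in the parental and at 0.0367, 0 and 0.0571 FPKM in the resistant libraries, and was not past the threshold.

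**Figure D2:**
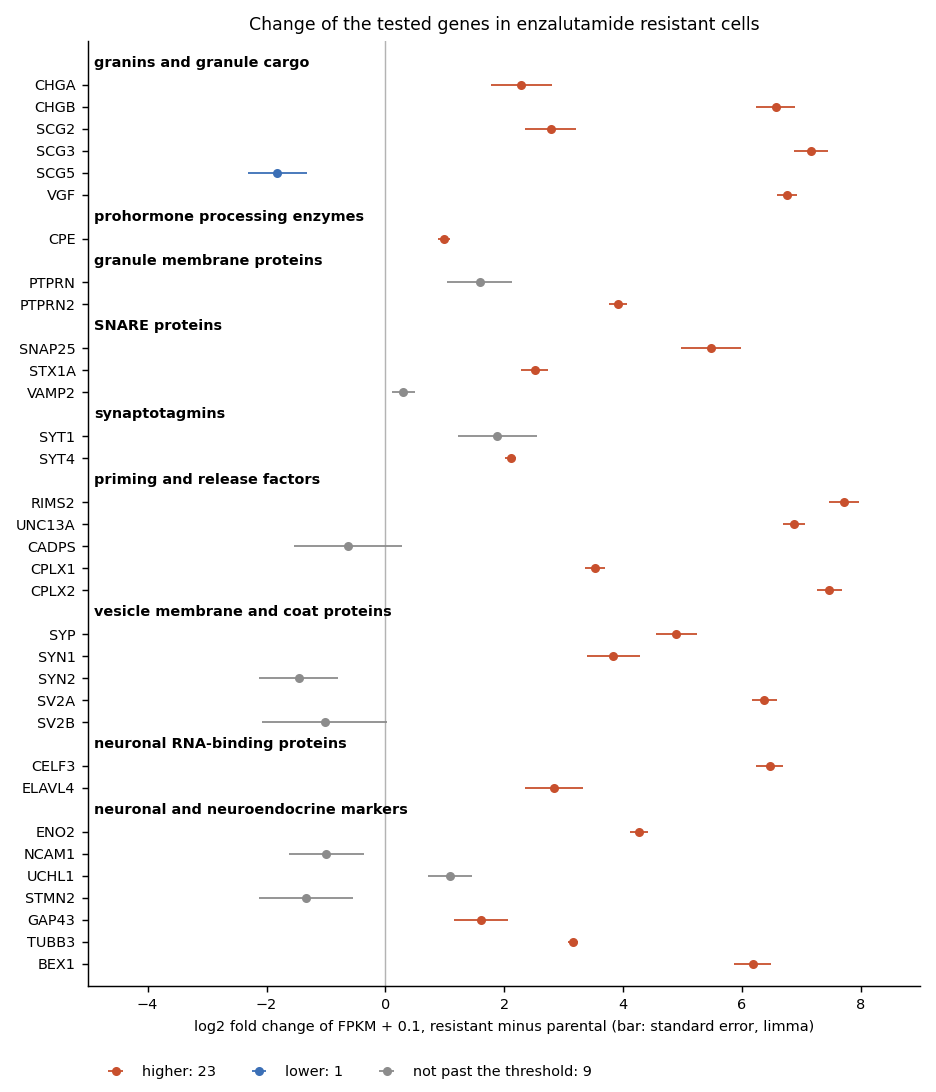
Log2 fold change of FPKM + 0.1, resistant minus parental, of the 33 genes tested, grouped by role; points are limma estimates from 3 libraries a group, bars their standard errors, and colours the call. The 23 genes called higher reach from CPE at 0.98 to RIMS2 at 7.71, and SCG5 is the gene called lower.

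In the vesicle membrane, SYP and SV2A were high in the resistant cells. SYP, synaptophysin, a standard stain for neuroendocrine tumours on chromosome X, was at 0.843, 2.01 and 2.25 FPKM in the parental and 48.7, 53.6 and 46.4 FPKM in the resistant libraries and was called higher. SV2A, a glycoprotein of synaptic vesicles, on chromosome 1 (between bases 149903318 and 149917844), had levels of 0.0963, 0.110 and 0.0861 FPKM in the parental and 16.9, 16.4 and 15.6 FPKM in the resistant libraries. On the log2 scale SV2A differed by 6.38 (SE 0.21, limma, BH-adjusted p = 8.02e-06). SYN1, synapsin I, which tethers vesicles to actin, was called higher from 0.0175, 0.140 and 0 FPKM to 1.74, 1.83 and 2.199 FPKM. Inside SYN1 on the opposite strand lies TIMP1, whose mean was 0.494 FPKM in the parental and 71.3 FPKM in the resistant cells. Whether reads of TIMP1 were counted for SYN1 was not tested. Their relatives SYN2 and SV2B were not called. SYN2 had 0.444, 0.507 and 0.420 FPKM in the parental and 0.0603, 0 and 0.416 FPKM in the resistant libraries. SV2B had 0.0253, 1.30 and 0.00744 FPKM in parental libraries and at most 0.0769 FPKM in the resistant libraries, so that its parental mean was set by replicate 1.

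The neuronal RNA-binding proteins control splicing and stability of neuronal messages. CELF3, on chromosome 1 (between bases 151700058 and 151716803), had levels of 0.103, 0.163 and 0.116 FPKM in the parental and 19.5, 17.5 and 23.0 FPKM in the resistant libraries. The fitted difference of CELF3 on the log2 scale was 6.46 (SE 0.23, limma, BH-adjusted p = 1.05e-05). ELAVL4, which encodes HuD, was called higher at a low level, from 0.0444, 0.0276 and 0 FPKM to 0.426, 0.884 and 1.19 FPKM. ELAVL3 did not exceed 0.134 FPKM in any library and was not tested.

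Of the general neuronal and neuroendocrine markers, 4 of 7 were called higher and none lower. TUBB3, neuronal beta tubulin, on chromosome 16 (between bases 89921392 and 89938761), had levels of 17.2, 15.2 and 17.6 FPKM in the parental and 143, 150.1 and 154 FPKM in the resistant libraries. On the log2 scale TUBB3 differed by 3.15 (SE 0.08, limma, BH-adjusted p = 4.60e-06). ENO2, the neuron-specific enolase of clinical tests, on chromosome 12 (6913745 to 6923698), went from 5.90, 8.46 and 7.09 FPKM to 140.4, 124 and 152 FPKM. The log2 values of ENO2 differed by 4.27 (SE 0.15, limma, BH-adjusted p = 1.11e-05). BEX1, a small brain-expressed adaptor protein on chromosome X, went from 1.22, 1.35 and 0.551 FPKM to 75.7, 78.9 and 78.6 FPKM. These 3 genes were thus abundant in every resistant library. GAP43, a growth cone protein, was called higher at a low level, from 0.0298, 0.0936 and 0 FPKM to 0.341, 0.342 and 0.260 FPKM. That call was lost without any of 4 libraries, parental replicates 0 and 2 and resistant replicates 0 and 1, with adjusted p values between 0.0637 and 0.0802 and, at an adjusted p of 0.119, after quantile normalization. UCHL1, a neuronal ubiquitin hydrolase, had 0.488, 0.801 and 0.399 FPKM in the parental and 0.959, 1.35 and 1.54 FPKM in the resistant libraries, with a log2 fold change of 1.09 and an adjusted p of 0.0507 in limma with Benjamini-Hochberg adjustment. NCAM1, the adhesion molecule CD56 used to stain neuroendocrine tumours, had 0.246, 0.589 and 0.169 FPKM in the parental and 0.105, 0.0109 and 0.256 FPKM in the resistant libraries, and was not past the threshold. STMN2, a tubulin-binding protein of growing axons, was at 0.119, 0.632 and 0 FPKM in parental libraries and was listed at 0 in all resistant libraries, and was not past the threshold either.

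In the resistant cells, the level was carried by few genes. VGF, SYT4, TUBB3, ENO2 and BEX1 together made up 73.8% to 75.1% of the summed level in the resistant libraries and 65.2% to 69.2% in parental libraries. The share of VGF was 25.6% to 25.9% in the resistant and 1.79% to 2.57% in parental libraries. By level in the resistant cells VGF came first, then SYT4, TUBB3, ENO2 and BEX1. The highest SYT4 value, 350.2 FPKM, lay just below the lowest VGF value, 353 FPKM, and the values of TUBB3 and ENO2 overlapped, while SYT4 and TUBB3, and ENO2 and BEX1, were apart.

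**Figure D3:**
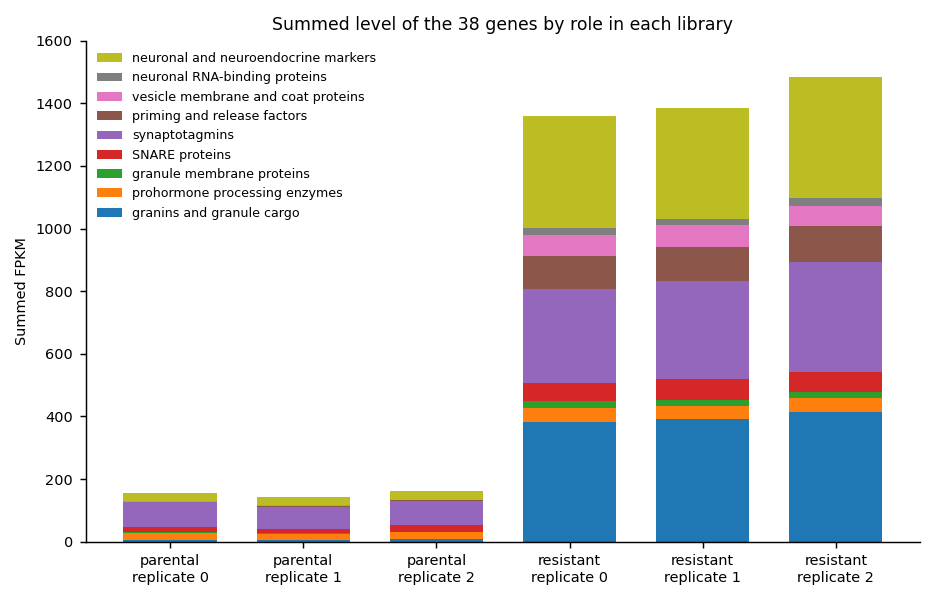
Summed FPKM of the 38 genes in each library, stacked by role, with 1 bar for each of the 3 parental and 3 resistant libraries. The bars reach 144 to 160.3 FPKM in the parental and 1361 to 1483 FPKM in the resistant libraries, and granins, synaptotagmins and the neuronal markers make up most of the resistant bars.

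The 38 genes lie on 17 chromosomes, and the 23 called higher lie on 15 of them with at most 3 on a chromosome. Chromosome 1 held CELF3, SV2A and ELAVL4, chromosome 7 held VGF, PTPRN2 and STX1A, and chromosome X held SYP, SYN1 and BEX1. In 16 of the 23, no other gene entry at a mean of 1 FPKM or more shared the locus that the table gives, among them VGF, SCG3, CHGB, SYT4, CPLX2, SYP, SV2A and BEX1. The other 7, ENO2, TUBB3, STX1A, PTPRN2, RIMS2, SNAP25 and SYN1, shared their locus with such an entry. For SYN1 the most abundant entry was TIMP1, given above. For SNAP25 it was ANKEF1, with means of 7.15 FPKM in the parental and 4.22 FPKM in the resistant cells. For ENO2 the most abundant entry was TPI1, with means of 388 FPKM in the parental and 761 FPKM in the resistant cells, and for TUBB3 it was TCF25, with means of 157 and 119.7 FPKM. For STX1A it was WBSCR22, with means of 71.9 and 126 FPKM, and for PTPRN2 it was the microRNA gene MIR595, listed at 0 in parental libraries with a resistant mean of 17.0 FPKM. For RIMS2 it was RP11-1C8.4, which overlaps the start of RIMS2 on the opposite strand and was listed at 0 in parental libraries, with a resistant mean of 5.06 FPKM. In the gene positions used here, TPI1, TCF25, WBSCR22 and ANKEF1 do not overlap ENO2, TUBB3, STX1A and SNAP25, in that order. MIR595 lies inside PTPRN2 on the same strand. How reads were shared within these loci was not tested.

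Other genes of regulated exocytosis were described with a list of 70 genes outside the 38, in which relatives of the same proteins moved in both directions. Of the 70, 63 were tested, of which 24 were called higher and 16 lower, with 23 not past the threshold, against the 22.1% and 22.3% over all genes tested. The median log2 fold change was 0.49. UNC13B, a Munc13 relative of UNC13A, went from 10.7, 12.6 and 10.7 FPKM to 67.3, 75.6 and 82.5 FPKM. RIMS3 went from 1.10, 0.774 and 0.911 FPKM to 19.0, 24.0 and 20.6 FPKM. RAB3C, a small GTPase of vesicles, went from 0.00638, 0 and 0 FPKM to 5.63, 7.21 and 9.13 FPKM. All 3 were called higher, as were VAMP8, a SNARE protein of exocrine and lysosomal vesicles, from 32.4, 27.7 and 27.2 FPKM to 69.1, 75.5 and 64.2 FPKM, and SYPL2, which was listed at 0 in all parental libraries and had 2.92, 2.84 and 3.37 FPKM in the resistant libraries.

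The genes called lower included relatives of members that were called higher. SNAP23, the general counterpart of SNAP25, went from 64.6, 56.3 and 63.5 FPKM to 23.7, 23.0 and 26.5 FPKM. SYPL1, a relative of synaptophysin found in many tissues, went from 64.2, 49.0 and 71.6 FPKM to 14.9, 14.6 and 16.9 FPKM. SYNGR2, a synaptogyrin of non-neuronal cells, went from 187, 171 and 192 FPKM to 82.5, 84.6 and 84.0 FPKM. In the RAB3 family, RAB3D went from 84.3, 70.8 and 81.6 FPKM to 17.9, 18.8 and 20.7 FPKM and RAB3B from 15.8, 15.005 and 15.8 FPKM to 2.29, 2.74 and 2.58 FPKM, while RAB3C rose. RAB3A, the main RAB3 protein of neurons, was called lower as well, from 27.2, 30.8 and 29.2 FPKM to 4.96, 4.10 and 8.31 FPKM, as was DOC2A, a calcium sensor of neurons, from 12.7, 17.0 and 13.6 FPKM to 8.01, 5.596 and 7.22 FPKM. RAB3A and DOC2A were singled out after their values had been seen. The groups of each of these genes did not overlap, and their BH-adjusted p values in limma ranged from 3.16e-05 for RAB3D to 0.00438 for DOC2A. SNAP23 was still the more abundant gene in the resistant cells, at 24.4 ± 1.81 FPKM (SD, n = 3) against 17.7 ± 1.502 FPKM (SD, n = 3) for SNAP25, and the 2 sets of values did not overlap. For SYP and SYPL1 the order of the levels turned over, from 1.70 ± 0.751 against 61.6 ± 11.5 FPKM in the parental cells to 49.6 ± 3.71 against 15.5 ± 1.23 FPKM in the resistant cells (SD, n = 3 each).

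**Figure D4:**
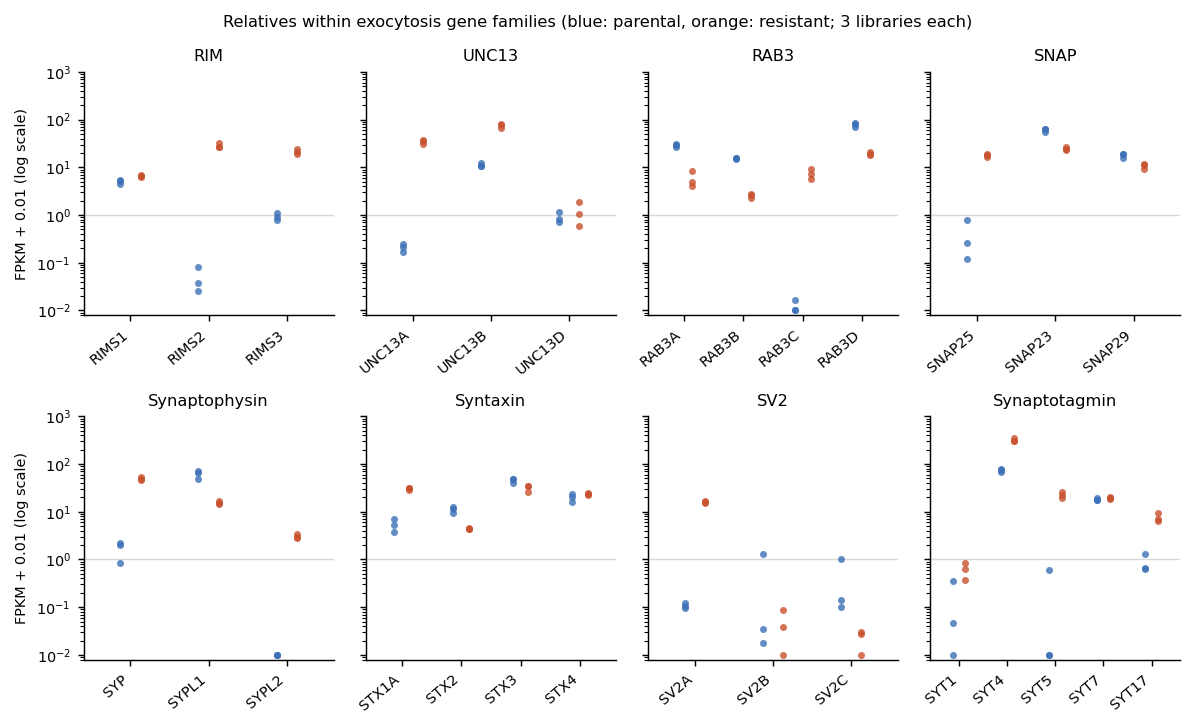
FPKM + 0.01 on a log axis for relatives in 8 families of exocytosis genes, with 1 point a library, 3 parental (blue) and 3 enzalutamide resistant (orange). Within the RAB3, SNAP, synaptophysin and syntaxin families, some genes were called higher and others lower in the resistant libraries. Examples are RAB3C against RAB3D, SNAP25 against SNAP23, SYP against SYPL1, and STX1A against STX2 and STX3.

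Markers of the cell line and of other cell types were read beside these results. All 9 prostate luminal markers were at a mean of 1 FPKM or more in both groups, but their summed level was 4146 to 4910 FPKM in the parental and 1171 to 1251 FPKM in the resistant libraries, with 6 called lower and 2 higher. Of 7 neuronal genes outside the 38, 2 were called higher, MAP2 and SLC17A7, and 1 lower, NEFL, and RBFOX3 and DCX did not exceed 0.0528 FPKM. The summed level of the 7 was 15.4 to 21.4 FPKM in the parental and 26.8 to 32.2 FPKM in the resistant libraries. Most of it came from MAP2, with means of 13.9 FPKM in the parental and 26.0 FPKM in the resistant cells. The summed level of 7 glial markers was 40.1 to 45.8 FPKM in the parental and 7.87 to 11.9 FPKM in the resistant libraries, most of it from MBP, and that of 6 fibroblast markers was 8.04 to 10.9 and 8.34 to 14.95 FPKM. Of the latter, DCN was listed at 0 in all parental libraries and had 3.63, 3.78 and 4.35 FPKM in the resistant libraries, and LUM had 0.0882, 0.0928 and 0 FPKM in the parental and 1.12, 0.609 and 1.18 FPKM in the resistant libraries. Both were called higher and 1 other fibroblast marker lower. Endothelial and leukocyte markers, 5 and 6 genes, summed to at most 1.45 FPKM in any library, and KDR and CD3E were at 0 throughout. The part of these marker differences in the values of the 38 genes was not tested. Parental replicate 1 had the highest of the 3 parental values in 22 of the 38 genes, and resistant replicate 2 had the highest resistant value in 22 as well. The share over all genes was not counted, so whether this is particular to the 38 genes is not known. For SYT11, CADPS, SYN2, SV2B, NCAM1 and STMN2, 6 of the 15 genes with a mean under 1 FPKM in both groups, parental replicate 1 had the highest value of all 6 libraries, and for another 6 of the 15 it was resistant replicate 2. The glial marker GFAP also had its highest value in parental replicate 1, at 4.54 FPKM. Without parental replicate 1, 25 of the 38 genes were called higher, with SYT1 and UCHL1 gained, and 0 lower. Without resistant replicate 2, 23 were called higher and 2 lower, SCG5 and SYN2. The part of these libraries in the low values was not tested. The non-coding RNA RMRP took 18.4% to 21.5% of the summed FPKM in the parental and 11.4% to 12.6% in the resistant libraries, and RPPH1 was at 0 in parental libraries and took 10.7% to 11.6% in the resistant libraries. With each library scaled to its sum without these RNAs, 25 genes were called higher and 1 lower.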

How the data were processed

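RNA-Seq values of 3 parental and 3 enzalutamide resistant C4-2B libraries were analysed. The authors sequenced single-end reads of 50 bp (the labels name both a TruSeq V2 and a stranded total RNA kit), trimmed them, aligned them with STAR to GRCh38 and estimated expression with Cufflinks on a GENCODE annotation. No unit stands in the deposited table, whose values were read as FPKM on the strength of these methods and of library sums of 792975 to 870110. The submitters' processing notes list Trimmomatic 0.27, FastQC 0.10.1 and the mouse build mm10 instead, but the gene identifiers and positions in the table are human. How libraries were scaled against each other, and whether strand was used, is not given in the sources used here.

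The table holds no counts, so no count test or counting interval was possible. From the steps between low values, the depth was put at 13600000 reads for parental replicate 2, the shallowest library, to 20500000 reads for parental replicate 0, and a value of 0 was read as listed at 0. Log2 of FPKM + 0.1 was fitted over the 24468 of 58024 genes whose mean reached 0.1 FPKM, in limma 3.58.1 (R 4.3.3, lmFit, then eBayes with its trend option), with resistant against parental as the only term and Benjamini-Hochberg adjustment over all genes tested (threshold 0.05, two-sided). The fit was checked on data simulated with known changes, in fewer genes than were called here. That check did not cover values of 0 or changes as large as those of VGF or RIMS2. An exact permutation test of 3 against 3 libraries cannot go below p = 0.1. Fold changes are on the log2(FPKM + 0.1) scale and understate those of low genes. Positions are from a later GENCODE release on GRCh38. Tables and figures were made with Python 3.11.15, pandas 2.3.3 and matplotlib 3.10.9.

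The 38 genes, the list of 70 related genes, the marker lists and the tests were chosen with earlier results of these data known. Genes were named by a fixed rule. Every one of the 38 is named, with values by library for those at 1 FPKM or more and full statistics for the 12 with the smallest adjusted p among these. Of the related genes, the 5 higher and the 5 lower with the smallest adjusted p are named. CPE, SYP, BEX1 and the others are given by value and call, and genes outside the rule were chosen after their values were seen. Alternatives covered the pseudocount, the filter, the scaling, the trend option, the replicate number as a block, the threshold and each library left out. The authors' Cuffdiff calls were not used. Promoter sequences are not reported here.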

Additional observations from a re-analysis of the deposited data

How the results depend on the processing

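The count of genes called higher among the 38 was 23 and lay between 18 and 25 over all alternatives, and between 22 and 25 in fits without 1 library. The 18 came from requiring a mean of at least 1 FPKM, which tested 20 of the 38 and left out CHGA, SCG2, SYN1, ELAVL4 and GAP43. The count called lower, 1, rested on SCG5. It was 0 at an adjusted p below 0.01 and between 0 and 2 with each library left out, and without resistant replicate 2 SYN2 was called lower as well. Of the 70 related genes, those called lower numbered 9 in place of 16 when a change of at least 2-fold was required and 13 to 15 with each library left out, and those called higher numbered 21 to 23 in these fits. Over 479 refits of the 33 single fold changes, none changed sign, 10 calls were lost, all of SCG5 and GAP43, and 13 were gained, among PTPRN, UCHL1, SYT1, SYN2 and VAMP2. PTPRN and UCHL1 passed with a pseudocount of 1 FPKM, with either linear scaling and without the variance trend, at adjusted p values of 0.0348 to 0.0485 over both genes. For RIMS2 the log2 fold change lay between 7.59 and 7.88 with each library left out, but a pseudocount of 1 FPKM gave 4.83 and one of 0.01 FPKM gave 9.37. For VGF it lay between 6.59 and 6.92, and these pseudocounts gave 6.41 and 6.80. With 0.01 FPKM, CHGB at 9.12 and SCG3 at 9.10 lay above CPLX2 at 8.81. VAMP2 passed without parental replicate 2, at an adjusted p of 0.0361. Scaling by the median of ratios moved the median log2 fold change of all genes from −0.05 to 0.05. The labels number the replicates 0 to 2 in both groups, but same-numbered libraries did not deviate together (correlations of −0.00301 to 0.0165). With the replicate number as a block, 22 genes were called higher and 1 lower, and of the related genes 22 and 15, so that GAP43 was the only one of the 38 to lose its call. Without counts, values under about 0.1 FPKM rest on few reads.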
